A study of Mus musculus with 14 samples.

Results

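The MYC and MAX network was followed through 10 genes of the 32285 counted in white nodules of Eif3e-conditional knockout mice. The genes were taken by symbol, and the list was chosen with earlier results of these data known. They were Myc and Mycn, their partner Max, the MAX-binding repressors Mxd1, Mxd3, Mxd4 and Mxi1, and the known MYC target genes Odc1, Ncl and Npm1. Nodules of 7 mice were dissociated, and single cells of each were sequenced for gene expression and, in a companion library, for rearranged antigen receptor transcripts (V(D)J). Receptors of B cells (BCR) were amplified in 5 mice and those of T cells (TCR) in 2 mice, which is the only grouping in the labels, and the mouse is the replicate. No healthy or Cre-negative nodule was analysed here, so cells were compared within and between these nodules.

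All 7 mice were Eif3e fl/fl with 1 Cγ1 Cre allele, and mice 29, 31, 32 and 34 also carried Rosa26-YFP fl/fl. Cγ1 Cre is expressed from the Ighg1 locus, which is transcribed in activated B cells. The mice with a BCR library were mouse 27 (nodule in liver, 12 months), mouse 29 (lung, 12 months), mouse 31 (spleen, 13 months), mouse 33 (thymus, 16 months) and mouse 34 (lung and thymus, 9 months). The mice with a TCR library were mouse 30 (liver, 14 months) and mouse 32 (spleen, 12 months). Values below are listed in these orders. The study describes the sequenced nodule of mouse 27 as a secondary tumor grown after transfer of its cells into a Rag2-/- mouse, a strain without mature lymphocytes of its own, and lists mouse 34 as a recipient of mixed JHT and cKO bone marrow. In its chimeras of this kind, the study states, B cells come from the cKO donor and most other immune cells from wild-type JHT marrow. The genotype above may therefore not hold for the reference T cells of mouse 34. Receptor type, lineage of the clone and mouse cannot be told apart between the BCR and TCR mice.

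In each nodule the clone was taken as all cells that shared the most frequent heavy chain (or TCR β chain) rearrangement, or the light chain (or α chain) that most often accompanied it. This gave 323 to 4868 clone cells per mouse and 15554 in all. Cells with at least 2000 UMIs (unique molecular identifiers, each standing for 1 captured transcript) were thinned to 2000 UMIs, and a cell was called cycling with 2 or more thinned UMIs of 10 proliferation genes, none of them a member of the network, and non-cycling with 0. Cycling cells made up 53.9%, 15.5%, 32.9%, 33.2% and 47.8% of such clone cells in the BCR mice and 5.67% and 9.06% in the TCR mice. Non-clonal cells were of 2 kinds. Other-receptor cells had a V(D)J call outside the clone (24 to 528 cells in 6 mice, none in mouse 27), and reference T cells passed a Cd3 gate outside the clone (286 to 2845 cells in 7 mice). In the TCR mice the reference T cells are the gated part of the other-receptor cells. Levels are in CPM, the UMIs of a gene scaled to 1000000 UMIs of all genes summed over a cell set, and they were compared within a gene only.

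MYC proteins pair with MAX and bind the DNA sequence CACGTG, the E-box, at genes for ribosome production, nucleotide and polyamine synthesis and cell growth. MAX also pairs with the MXD proteins and MXI1, which occupy the same sites and recruit histone deacetylases, so that MYC and the MXD family compete for MAX and for DNA. In lymphocytes Myc is induced by antigen and cytokine signals, and its rearrangement or amplification is a recurrent event in B and T cell lymphoma.

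The E-box was searched for in RefSeq promoter windows of assembly GRCm38.p6, from 250 bases before to 50 bases after a start. A gene can have several starts, and a window may lie by a start inside the gene's outer bounds, as that of Max (chr12:76962199-76962498) does. Of 32851 windows of all genes, 7.15% held CACGTG, which reads the same on both strands. The members had 10 windows over 8 genes, and 2 held the motif, those of Max and Mxd4. No window of Myc or Npm1 was among those available, so these genes were not searched. Of 81 windows of the further MYC-related genes read below, 22 (27.2%) held it. Parts of the Max and Mxd4 windows are shown with the E-box in capitals, beside 60 bases before the start of Ncl, a MYC target without the motif in its window. They are shown because Max is the partner of all other factors of the network, and Mxd4 and Ncl moved in opposite directions with cycling (lower and higher in cycling cells of 7 clones).
Max, chr12:76962243-76962272, minus strand: ccccggcgcggtgagcccggtCACGTGtta
Mxd4, chr5:34187901-34187960, minus strand: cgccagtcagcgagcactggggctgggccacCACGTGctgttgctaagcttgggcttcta
Ncl, chr1:86359456-86359515, minus strand: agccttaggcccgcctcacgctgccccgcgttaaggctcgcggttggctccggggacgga
The Max gene lies at chr12:76937269-76962323, Mxd4 at chr5:34176580-34187710, Ncl at chr1:86344719-86359455 and Myc at chr15:61985341-61990361 in that assembly. A match describes the letters of a window and no binding was measured.

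The RNA libraries held 19264039 to 123456962 UMIs, and 75503 of 77442 deposited cells passed the limits of the study. Pairs of libraries shared at most 278 cell barcodes. B markers summed to 1734.1 to 3655 CPM in the clones of the BCR mice and to 19.5 to 111 in those of the TCR mice, while T markers summed to 2130.2 to 3165 in the TCR mice and 11.9 to 127 in the BCR mice. Eif3e, the floxed gene, was counted at 142 to 243 CPM in clones and 111 to 190 in reference T cells. Whether the counted end of the transcript lies in the deleted part was not settled, so this level does not check the deletion. The study itself reports B and CD4+ T cells of its tumors, primary and secondary, as YFP-negative and with a normal level of eIF3e protein. The clones are therefore not to be read as cells shown to lack eIF3e. RNA of other cell types was present in the T clones, where the 6 neutrophil markers summed to 4183 and 5614 CPM in cycling cells of mice 30 and 32 against 565 and 1356 in non-cycling cells, and T markers summed to 2085 and 903 against 3297 and 2565. Erythroid markers summed to 2567 CPM in cycling and 453 in non-cycling clone cells of mouse 32. Counts were therefore repeated on cells of their own lineage gate with under 1000 CPM of neutrophil, erythroid and macrophage markers. These cells are called free of such RNA below, although they may still hold some of it. Their marker sums were not taken.

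Myc RNA was counted in every clone. It stood at 162, 462, 184, 154 and 79.0 CPM in the B clones and at 77.1 and 64.9 in the T clones. Mouse 29 was far above the rest, and both T clones lay below all B clones, with the B clone of mouse 34 next above them. Reference T cells held 40.8, 75.9, 41.8, 67.9 and 55.8 CPM in the BCR mice and 109 and 86.4 in the TCR mice, so every B clone was above and both T clones were below the reference T cells of the same nodule. Of 14128 genes 7.42% had all BCR mice on one side and both TCR mice on the other, and of the members Myc, Mxd4 and Npm1 did. In a summed level, fewer cells with the transcript and fewer UMIs per cell cannot be told apart.

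**Figure D1:**
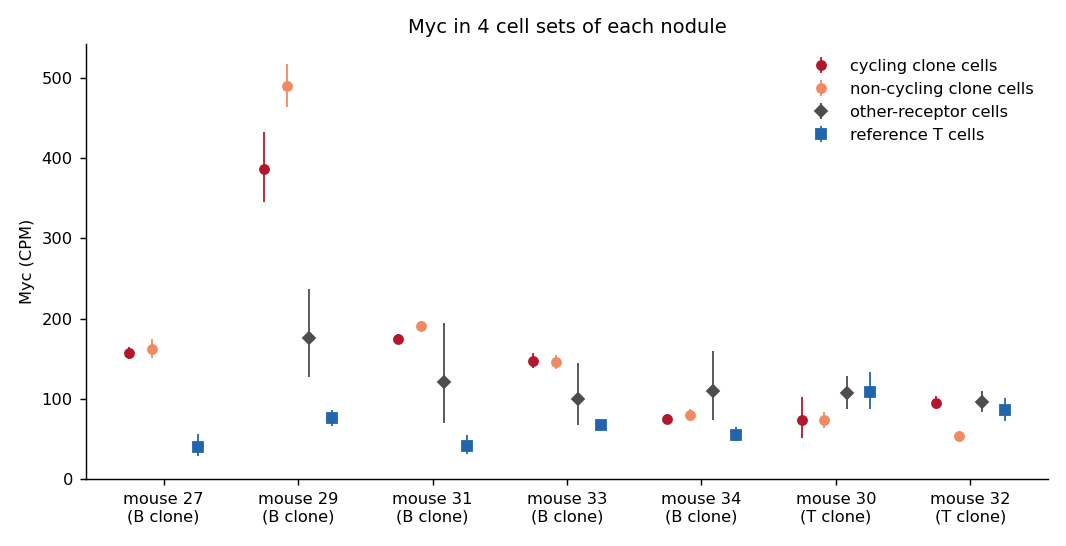
Myc in CPM (vertical axis, linear from 0) for cycling and non-cycling clone cells, other-receptor cells and reference T cells of each mouse, in sets of at least 20 cells (points where a set is smaller are not drawn), with 95% Poisson intervals that cover counting error only. Mouse 29 stands at 387 in cycling and 491 in non-cycling clone cells, and the clones of mice 30 and 32 lie at or below 95.3.

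Genes whose summed level followed that of Myc were sought over 21 sums (cycling clone, non-cycling clone and reference T cells of 7 mice) among 6463 genes with a mean of at least 20 CPM. The highest correlations of log levels were those of Snx5 (r = 0.90), Gtf2h1 (0.88), Naa15 (0.88), Caprin1 (0.87) and Nol6 (0.87). Among the members, Npm1 ranked 47 (r = 0.78), Ncl 317 (0.65) and Max 1198 (0.42), while Mxd1, Mxi1, Odc1 and Mxd4 had negative values from -0.39 to -0.52. The 3 sums of a mouse share a library, and mouse 29 is high in both of its clone sums, so these values are a description only.

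Mycn, the paralog of Myc used mainly in neural and early progenitor cells, was nearly absent from the clones. It gave 30 UMIs in the clone of mouse 32 (1.08 CPM), at most 4 in any other clone, and none in mice 29, 31 and 30, where 0 counts allow up to 0.770, 0.0618 and 0.553 CPM. The highest set was the cells of mouse 32 without a V(D)J call, with 424 UMIs or 4.58 CPM. Mycn was under the filter in every comparison of all mice. Where leaving out mouse 30 brought it above the filter (3 comparisons between BCR and TCR mice), it did not pass (adjusted p = 0.37 to 0.99).

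Max, the obligate partner, varied less among the clones than any other member. Its level was 58.4, 68.7, 59.5, 88.6 and 65.4 CPM in the B clones and 58.8 and 70.3 in the T clones, a range of 1.52-fold, and 48.5, 49.5, 46.0, 41.1 and 58.0 and 36.7 and 54.3 in the reference T cells of the same mice. The clone was the higher of the pair in 7 of 7 mice.

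Within the clones, cycling cells held less Mxd4 and more Ncl and Npm1 than non-cycling cells, while Myc itself did not differ detectably. Of 8 members above the filter on low counts, 5 passed edgeR's quasi-likelihood test with the mouse as block (Benjamini-Hochberg adjusted p under 0.05 over all genes tested), against 24.0% of the 11077 genes tested (11.9% higher and 12.1% lower). Cycling clone cells were also deeper, with median UMIs of 6691 to 16909 per mouse against 2709.5 to 12678.

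Myc stood at 158, 387, 175, 147 and 75.6 CPM in cycling cells of the B clones and at 162, 491, 192, 146 and 79.8 in non-cycling cells. In the T clones it was 73.4 and 95.3 against 73.8 and 54.2. Mouse 32 had a clearly higher level in cycling cells, mouse 33 a nearly equal one, and the other 5 mice a lower one. The log2 difference was 0.02, SE 0.12, 95% interval -0.24 to 0.28, adjusted p = 0.94. In the 5 BCR mice alone it was -0.13 (SE 0.07, adjusted p = 0.17).

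Max was lower in cycling cells in 7 of 7 mice, at 55.4, 66.5, 53.7, 80.9 and 59.9 against 61.0, 71.7, 65.4, 98.5 and 70.4 CPM in B clones and 48.3 and 59.4 against 56.6 and 73.9 in T clones. The difference was small (-0.25, SE 0.08, adjusted p = 0.040). It missed the threshold when mouse 29, 30, 31, 33 or 34 was left out (log2 -0.26 to -0.23, adjusted p = 0.0505 to 0.13).

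Among the MAX-binding repressors, Mxd4, which is linked to resting and differentiated cells, fell in all 7 mice. It stood at 19.9, 25.9, 32.1, 17.9 and 29.2 CPM in cycling cells of the B clones against 32.7, 57.1, 68.8, 34.9 and 50.8 in non-cycling cells, and at 48.3 and 35.4 against 66.2 and 101 in the T clones. This was a 2.00-fold lower level (log2 -1.0, SE 0.13, adjusted p = 0.00018), and it passed with each mouse left out (log2 -1.06 to -0.89). Mxi1, a further MAX partner, fell by a smaller amount (-0.35, SE 0.12, adjusted p = 0.047), with mouse 29 in the other direction. That call was lost without mouse 27, 30, 31, 33 or 34 (log2 -0.36 to -0.31, adjusted p = 0.091 to 0.12).

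Mxd1, which rises as many cells stop dividing, gave -0.13, SE 0.23, 95% interval -0.62 to 0.37, adjusted p = 0.72 over 7 mice, with 3 mice higher and 4 lower in cycling cells. Cycling cells of the B clones held 17.1, 29.6, 5.81, 11.8 and 13.2 CPM against 19.4, 72.0, 9.68, 14.3 and 13.0. In these 5 mice alone Mxd1 was called lower (-0.47, SE 0.16, adjusted p = 0.039), in a fit that called 3393 of 11098 genes. Cycling cells of the T clones held 62.9 and 86.1 against 24.8 and 64.9. In cells free of RNA of other types the T clone values became 5.02 and 51.3 against 21.2 and 48.9, with 11.9% and 41.1% of their cycling cells left out. The difference of T minus B clones did not pass (1.03, SE 0.32, adjusted p = 0.063) and was 0.13 in the free cells (SE 0.33, adjusted p = 0.90). It passed without TMM (1.13, adjusted p = 0.043) and without the filter (0.91, adjusted p = 0.016).

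Mxd3, the family member transcribed in dividing cells, was under the filter but ran opposite to Mxd4. It stood at 4.63, 0, 5.86, 4.21 and 11.6 CPM in cycling cells of the B clones against 0.211, 0, 0.157, 0.268 and 1.13 in non-cycling cells, and at 8.39 and 8.61 against 0 and 0.688 in the T clones. It was higher in cycling cells in 6 mice and at 0 in both sets of mouse 29. Fitted without the filter the difference was 4.02 (SE 0.37, adjusted p = 5.1e-26), a value that depends on the handling of counts near 0 and is not among the 5 calls. Without mouse 29 Mxd3 was above the filter and passed (4.04, SE 0.33, adjusted p = 2.7e-05).

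The target genes for nucleolar proteins rose in all 7 mice. Ncl, which encodes nucleolin, was at 2145, 3399, 1246, 1420.4 and 1190.0 CPM in cycling cells of the B clones against 1705, 2186, 786, 927 and 940.3, and at 1932 and 1893 against 1091 and 727 in the T clones (0.67, SE 0.10, adjusted p = 0.00076). Npm1, which encodes nucleophosmin, was at 2453, 6232, 1545, 1934 and 1996 against 2072, 4754, 1068, 1419.7 and 1645 in the B clones and at 1899 and 1545 against 944 and 633 in the T clones (0.58, SE 0.11, adjusted p = 0.0035). Both passed with each mouse left out. Npm1 and Odc1 have processed pseudogene copies, and how reads matching several copies were counted is not given in the sources used here. Odc1, for the first enzyme of polyamine synthesis, did not follow them, with a log2 difference of -0.24, SE 0.09, adjusted p = 0.087 and lower levels in 6 of 7 mice. It passed only without mouse 29 (-0.31, adjusted p = 0.029), by DESeq2, which called 6 members and 28.5% of genes, and in no other alternative tried for this comparison.

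**Figure D2:**
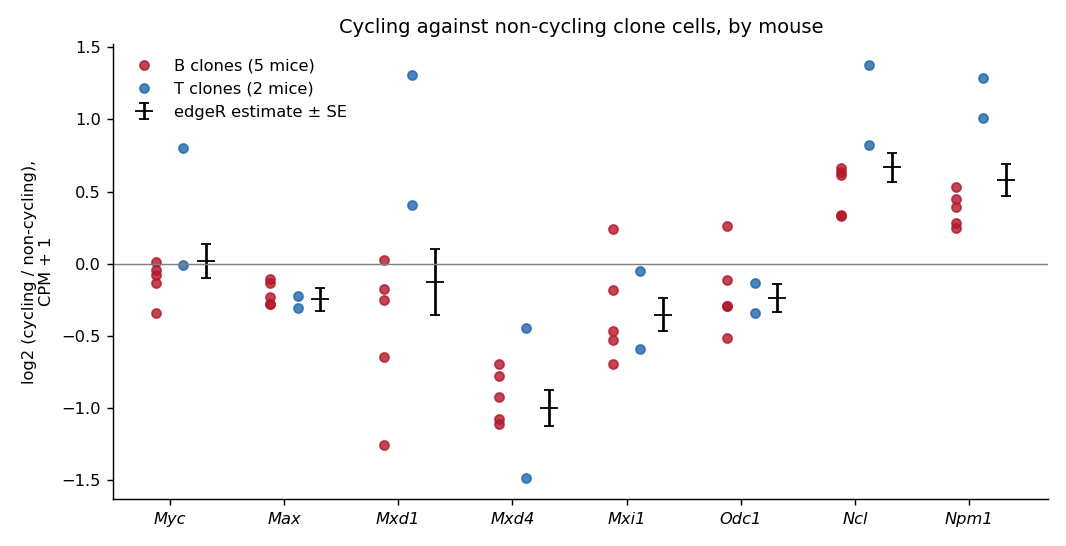
Log2 ratio of CPM + 1 in cycling over non-cycling clone cells (vertical axis) for the 8 tested members, 1 point per mouse (red, 5 B clones; blue, 2 T clones), with the edgeR estimate ± SE in black. All 7 points lie below 0 for Max and Mxd4 and above 0 for Ncl and Npm1, and the T clones are the highest points for Ncl and Npm1.

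Other genes around MYC were read in 5 lists of 70 genes in all, also chosen with earlier results of these data known. Of 67 tested, 24 were higher and 4 lower in cycling clone cells. Of 20 genes of the nucleolus and ribosomal RNA synthesis, 8 rose and none fell (median log2 0.33, against -0.07 over all genes tested), among them Nop58 (0.64, SE 0.08, adjusted p = 0.00027), Nolc1 (0.59, SE 0.13, adjusted p = 0.0074) and Fbl (0.48, SE 0.11, adjusted p = 0.0079), which act in the processing and modification of ribosomal RNA. Of 19 further MYC targets, 10 rose and none fell (median 0.34), led by Ran (0.84, SE 0.08, adjusted p = 1.5e-05), for nuclear transport, Cdk4 (0.60, SE 0.11, adjusted p = 0.0031), for entry into the cycle, and Cad (1.06, SE 0.22, adjusted p = 0.0061), for pyrimidine synthesis.

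Among 12 polyamine genes 3 rose and 2 fell (median 0.23). Sms, which makes spermine, rose (0.47, SE 0.08, adjusted p = 0.0016), as did Eif5a (0.42, SE 0.12, adjusted p = 0.028), the factor modified with spermidine, and Sat1, which starts polyamine breakdown, fell (-0.47, SE 0.09, adjusted p = 0.0033). Among 12 cofactors and turnover factors 3 rose and 1 fell (median -0.03), and the 3 that rose were Skp2 (1.60, SE 0.20, adjusted p = 0.00014), Ruvbl2 (0.85, SE 0.16, adjusted p = 0.0039) and Ruvbl1 (0.50, SE 0.13, adjusted p = 0.017). Skp2 is itself a gene of the cell cycle. Of 4 other MAX and MLX partners tested, 1 fell, Mlxip (-0.44, SE 0.12, adjusted p = 0.022).

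The size of the cycling contrast differed between T and B clones for both nucleolar members. The log2 contrast was larger in the T clones for Npm1 (0.68, SE 0.11, adjusted p = 0.0019) and for Ncl (0.50, SE 0.14, adjusted p = 0.049), 2 of 9 members tested, against 6.24% of 14494 genes. Without mouse 32 neither passed (Npm1 0.52, adjusted p = 0.062; Ncl 0.19, adjusted p = 0.74), and Ncl was also lost without mouse 27, 29, 31, 33 or 34 (0.46 to 0.54, adjusted p = 0.066 to 0.15). In cells free of RNA of other types Npm1 remained past the threshold (0.71, SE 0.13, adjusted p = 0.0082) and Ncl did not (0.54, SE 0.16, adjusted p = 0.088). DESeq2, which called 5.82% of genes, called Ncl and Npm1. Myc gave 0.56, SE 0.21, adjusted p = 0.13, and passed without mouse 30 (0.82, adjusted p = 0.0044), as did Mxd4 (-0.69, adjusted p = 0.017). The neutrophil and erythroid RNA of the cycling T clone cells given above moves with this comparison, and its part beyond the repeat on free cells was not tested. Of 69 listed genes 9 had a larger contrast in T clones and none a smaller one, among them Shmt2 (1.54, SE 0.25, adjusted p = 0.0013), a mitochondrial enzyme of serine metabolism, and Srm (1.24, SE 0.29, adjusted p = 0.018), which makes spermidine.

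Within the cycling clone cells, Myc was higher in cells leaning to S phase than in cells leaning to G2/M. Cells were placed by the larger of their UMI counts over 10 S-phase and 10 G2/M genes, and 5 mice had at least 20 cells in both sets. Myc stood at 179.6, 181, 154, 80.3 and 101 CPM in S-leaning cells of mice 27, 31, 33, 34 and 32, and at 134, 112, 132, 70.2 and 94.4 in G2/M-leaning cells. The S-leaning set was the higher in 5 of 5 mice, although levels of the 2 sets overlapped across mice.

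The fitted difference for Myc was 0.36, SE 0.08, adjusted p = 0.0075, and it was the only one of 9 members tested to pass, against 9.36% of 10423 genes. DESeq2, which called 6.22% of genes, also called Myc alone. The edgeR call missed the threshold without mouse 27 (0.33, adjusted p = 0.054) and without mouse 31 (0.26, adjusted p = 0.052). Npm1 gave 0.12, SE 0.06, adjusted p = 0.24 and passed without mouse 32 (0.20, adjusted p = 0.025). Of the other listed genes 8 of 67 were higher and 1 lower in S-leaning cells, including Cdk4 (0.49, SE 0.07, adjusted p = 0.00016), Azin1 (0.33, SE 0.06, adjusted p = 0.0021), which protects ornithine decarboxylase from degradation, Nolc1 (0.30, SE 0.07, adjusted p = 0.013) and Skp2 (1.15, SE 0.15, adjusted p = 4.9e-05). The lower gene was Mlx (-0.34, SE 0.09, adjusted p = 0.031).

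Against reference T cells of the same nodule, the clones had less Mxd1 in all 7 mice, although levels of the 2 sets overlapped across mice. Mxd1 was at 18.9, 67.2, 8.46, 13.4 and 13.3 CPM in the B clones and 32.8 and 70.8 in the T clones, against 135, 152, 56.9, 152 and 44.0 and 75.9 and 181 in the reference T cells. The log2 difference was -2.03, SE 0.31, a 4.08-fold lower level (adjusted p = 0.0083), and Mxd1 was the only one of 9 members tested to pass, against 11.3% of 11257 genes (4.66% higher and 6.6% lower). It passed in each of 18 alternatives tried, including without each mouse in turn (-2.16 to -1.82). Neutrophil markers summed to 2952, 1195.0 and 1658 CPM in the reference T cells of mice 29, 30 and 32, against 529, 824 and 2095 in their clones. In mouse 32 the clone was thus the higher. They summed to at most 4.41 in the reference T cells of the other 4 mice. Mxd1 was at 402 and 287 in the cells of mice 29 and 30 without a V(D)J call. Macrophage markers summed to 250 to 1034 CPM in the reference T cells of the BCR mice against 23.9 to 82.3 in their clones, and erythroid markers to 344 in the reference T cells of mouse 31 against 2.76 in its clone. In cells free of RNA of other types the difference was as large (-2.15, SE 0.32, adjusted p = 0.0085).

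The other members did not pass over 7 mice. The largest estimate was that of Mxi1 (-2.01, SE 0.93, adjusted p = 0.16), which ranged widely among clones, at 4.07, 74.1, 2.55, 177 and 36.4 CPM in the B clones and 219.8 and 147 in the T clones, an 86.1-fold range, against 430.0, 223, 158, 411 and 109 and 144 and 231 in reference T cells. Mice 27 and 31 were nearly without Mxi1 in the clone, and only the T clone of mouse 30 was above its reference. Odc1 was lower in the clone in 6 of 7 mice, at 128, 116, 155, 227 and 132 and 78.6 and 232 against 519, 236, 333, 332 and 181 and 133 and 218 (-0.78, SE 0.24, adjusted p = 0.063), and passed without mouse 32 (-0.91, adjusted p = 0.043). Max gave 0.54, SE 0.16, adjusted p = 0.061 and Myc 1.13, SE 0.47, adjusted p = 0.12. DESeq2, which called 30.5% of genes here, called 5 members, namely Myc, Max, Mxd1, Mxi1 and Odc1.

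**Figure D3:**
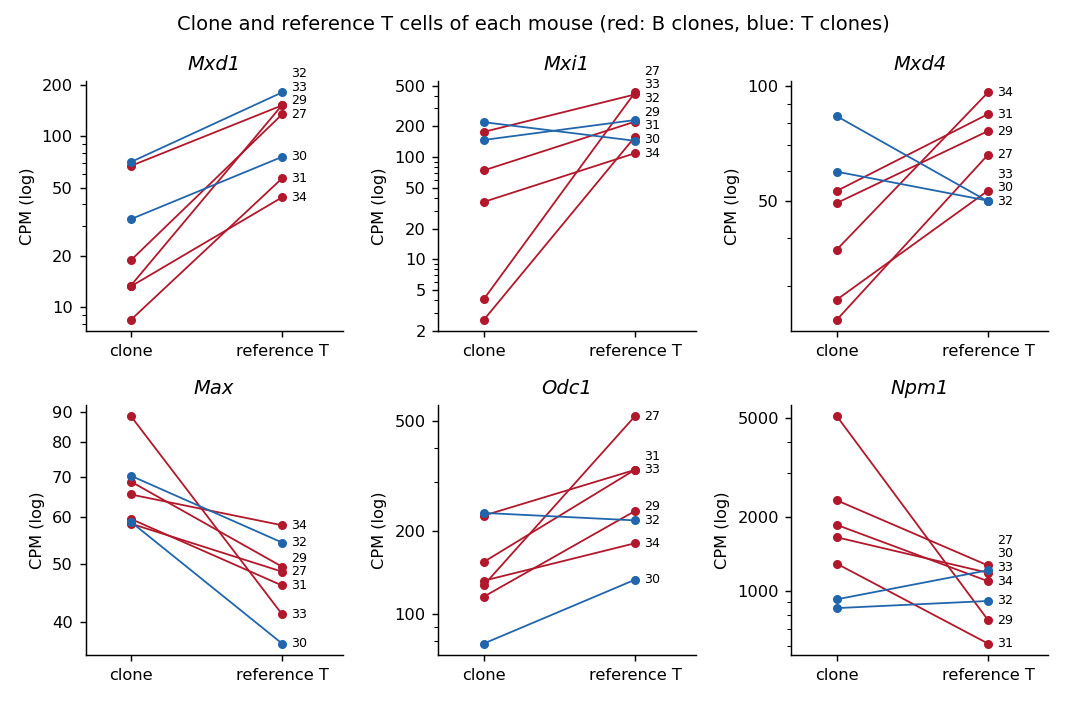
Levels in CPM (vertical axes, log scale) of 6 members in clone and reference T cells, joined by mouse (number at the right; red, B clones; blue, T clones). All 7 lines rise toward the reference for Mxd1 and fall for Max, and the T clones run against the B clones for Mxd4 and Npm1.

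In the 5 BCR mice this comparison sets B cells against T cells, and clone and lineage cannot be told apart there. In those mice alone 6 of 9 members passed, against 3445 of 12449 genes. Myc (1.77, SE 0.34, adjusted p = 0.0093), Npm1 (1.25, SE 0.36, adjusted p = 0.040) and Ncl (0.73, SE 0.23, adjusted p = 0.049) were higher in the clone. Mxd1 (-2.32, SE 0.37, adjusted p = 0.0049), Mxd4 (-0.91, SE 0.22, adjusted p = 0.023) and Odc1 (-0.93, SE 0.28, adjusted p = 0.047) were lower. Npm1 stood at 2329.6, 5108, 1290.4, 1651 and 1853 CPM in the B clones against 1269, 763, 613, 1186 and 1096, and every B clone was above its reference. Ncl stood at 1988, 2461, 991, 1163 and 1084 against 1203, 937, 688, 893 and 937, again higher in 5 of 5, and Mxd4 at 24.5, 49.5, 53.2, 27.7 and 37.4 against 66.1, 76.3, 84.4, 53.3 and 96.2, lower in 5 of 5.

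In the TCR mice, where both sets are T cells, Npm1 was at 925 and 853 CPM in the clones against 1213 and 911, and Mxd4 at 59.7 and 83.4 against 50.2 and 50.0, which is the other direction for both genes. The difference between the TCR and BCR mice was tested on its own and passed for 0 of 9 members by edgeR, against 2.17% of 14128 genes. It was -2.43 for Myc (SE 0.56, adjusted p = 0.073), -1.70 for Npm1 (SE 0.58, adjusted p = 0.18) and 1.21 for Mxd4 (SE 0.39, adjusted p = 0.15). These 3 and Ncl, 4 members of 9, were under an unadjusted p of 0.05, as were 18.6% of all genes. DESeq2, which called 8.71% of genes, called 2 (Myc and Mxd4), and edgeR called Myc without mouse 34 (-2.73, adjusted p = 0.039).

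Of 67 listed genes 9 were higher and 1 lower in clones than in reference T cells. All 20 genes of the nucleolus and ribosomal RNA synthesis were tested over the 7 mice, with a median of 0.90 against 0.07 over all genes, and 4 passed, all higher, among them Dkc1 (1.29, SE 0.34, adjusted p = 0.046) and Nip7 (0.94, SE 0.22, adjusted p = 0.037). Higher genes among the turnover factors were Fbxw7 (1.51, SE 0.35, adjusted p = 0.035) and Usp28 (1.90, SE 0.50, adjusted p = 0.047), which act in the ubiquitination and deubiquitination of MYC. Slc3a2, a subunit of amino acid transporters, was the gene that fell (-1.09, SE 0.19, adjusted p = 0.013). These estimates pool mice that differed. In the difference of TCR minus BCR mice the nucleolar list had a median of -1.21 against 0.06 over all genes, with no gene passing. Usp28 passed there as the only one of 68 listed genes (-2.81, SE 0.55, adjusted p = 0.044), and Fbxw7 gave -1.66, SE 0.56, adjusted p = 0.17. In the BCR mice the comparison is of B cells with T cells, so the higher levels cannot be told apart from lineage.

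Restricting both sides to non-cycling cells gave the same member. Mxd1 was at 19.4, 72.0, 9.68, 14.3 and 13.0 and 24.8 and 64.9 CPM in non-cycling clone cells against 126, 207, 58.8, 174 and 44.9 and 67.3 and 211 in non-cycling reference T cells (-2.18, SE 0.27, adjusted p = 0.0034), the only one of 8 members to pass, against 9.62% of 10131 genes. DESeq2, which called 25.1% of genes, called Mxi1 and Odc1 as well. On the BCR mice alone edgeR called 4 of 8 members, against 2640 of 10702 genes. They were Myc (1.34, adjusted p = 0.023), Npm1 (1.18, adjusted p = 0.041), Mxd4 (-0.77, adjusted p = 0.037) and Mxd1 (-2.39, adjusted p = 0.0021). Myc over 7 mice was 0.73, SE 0.43, 95% interval -0.23 to 1.69, adjusted p = 0.26. Myc, Mxd4 and Npm1 again ran in opposite directions in BCR and TCR mice, as did 7.64% of genes. Of 66 listed genes 5 were higher and 1 lower, including Shmt2 (1.24, SE 0.28, adjusted p = 0.034) and Rrs1 (1.14, SE 0.29, adjusted p = 0.044), for ribosome assembly.

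Against cells of the same lineage with another receptor, no member passed edgeR's test. In 6 mice 0 of 8 members and 0.0% of 10365 genes were called. At an unadjusted p under 0.05 there were 882 genes (8.51%), among them 2 members, and DESeq2 called 107 genes (1.03%), with Mxd1 as the only member. Other-receptor sets were small, with under 50 cells in each BCR mouse.

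Mxd1 was the lower in the clone in 6 of 6 mice. Its clones stood at 67.2, 8.46, 13.4 and 13.3 CPM against 131, 14.3, 38.2 and 23.7 in other-receptor cells of those BCR mice, and at 32.8 and 70.8 against 75.0 and 162 in the TCR mice (-1.22, SE 0.20, 95% interval -1.67 to -0.77, adjusted p = 0.12). Odc1 was also the lower in 6 of 6 mice, at 116, 155, 227, 132 and 78.6 and 232 against 189, 307, 295 and 134 and 127 and 237 (-0.52, SE 0.20, 95% interval -0.96 to -0.09, adjusted p = 0.52). In mouse 31 the level of other-receptor cells rested on 2 Mxd1 UMIs. Neutrophil markers reached 2066, 1697 and 1317 CPM in the other-receptor cells of mice 29, 30 and 32, against 529, 824 and 2095 in their clones. Macrophage markers reached 958 in the other-receptor cells of mouse 33 against 23.9 in its clone. In cells free of such RNA Mxd1 gave -1.33 (SE 0.25, adjusted p = 0.14).

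Myc did not separate clone from other-receptor cells in a common direction. It was higher in the clone in mice 29, 31 and 33 and lower in mice 34, 30 and 32, with 176, 121, 101 and 111 CPM in the other-receptor cells of the BCR mice and 107 and 96.3 in those of the TCR mice (0.09, SE 0.27, 95% interval -0.50 to 0.68, adjusted p = 0.96). The intervals of Ncl (95% interval -0.26 to 0.71) and Npm1 (95% interval -0.18 to 0.99) also spanned 0. None of 67 listed genes passed, and the nucleolar list had a median of 0.46 against 0.10 over all genes.

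Cycling reference T cells showed the same rise of nucleolar targets and fall of Mxd4 as the clones. In the 4 mice with at least 20 cycling reference T cells (27, 29, 33 and 34, with 37, 24, 378 and 71 such cells), 6 of 9 members passed. Of 8387 genes 16.3% were higher and 14.7% lower, and of the members 3 were higher and 3 lower. DESeq2, which called 20.5% of genes, called the same members except Mxd1. Mxd4 was at 30.4, 46.5, 25.4 and 26.2 CPM against 62.8, 87.3, 68.2 and 126 (-1.56, SE 0.21, adjusted p = 7.6e-05).

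Mxd3 was at 15.2, 15.5, 27.2 and 26.2 in cycling cells against 0, 0.677, 1.36 and 0.670 (4.42, SE 0.37, adjusted p = 9.7e-07). The size of this estimate depends on non-cycling counts near 0, and the cycling sets of mice 27 and 29 held only 37 and 24 cells. Without mouse 33 Mxd3 was under the filter and was not tested. Npm1 rose (0.96, SE 0.17, adjusted p = 0.00074), as did Ncl (0.69, SE 0.17, adjusted p = 0.0072), although Ncl missed the threshold without mouse 33 (0.71, adjusted p = 0.051) or 34 (0.51, adjusted p = 0.11).

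Myc passed here as lower in cycling cells, at 15.2, 46.5, 64.2 and 36.4 CPM against 91.1, 108, 69.4 and 64.3 (-0.68, SE 0.24, adjusted p = 0.049). That call was lost without mouse 27 (-0.51, adjusted p = 0.12), 29 (-0.51, adjusted p = 0.10) or 34 (-0.74, adjusted p = 0.14). It was also lost without the mouse as block, and with cycling cells taken at 3 or more thinned UMIs, which left 3 mice. Mxd1 was also called lower (-0.57, SE 0.18, adjusted p = 0.026). It was lost without mouse 33 (-0.51, adjusted p = 0.20) or 34 (-0.64, adjusted p = 0.071), by DESeq2, and in cells free of RNA of other types (-0.30, adjusted p = 0.25), and neutrophil markers summed to 6417 CPM in the cycling reference T cells of mouse 29 against 4549 in the non-cycling ones. Macrophage markers were lower in cycling than in non-cycling reference T cells in 4 of 4 mice, at 3.81, 155, 180.0 and 31.9 CPM against 506, 522, 279 and 549, and erythroid markers in mouse 29 were at 25.8 against 457. In the free cells Mxd4 gave -1.58 (SE 0.21, adjusted p = 3.5e-05) and Myc -0.69 (SE 0.24, adjusted p = 0.040). Mxi1 passed without mouse 27 (-0.72, adjusted p = 0.021).

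Of 65 listed genes 25 were higher and 6 lower in cycling reference T cells. Of 20 nucleolar genes 8 rose and none fell (median 0.43 against -0.04 over all genes), including Fbl (0.92, SE 0.15, adjusted p = 0.00052) and Mybbp1a (0.74, SE 0.18, adjusted p = 0.0062). Of 18 further MYC targets 10 rose and 2 fell (median 0.55), led by Ran (1.60, SE 0.18, adjusted p = 2.0e-05), Nme1 (1.21, SE 0.17, adjusted p = 0.00010), a nucleoside diphosphate kinase, and Cdk4 (1.10, SE 0.17, adjusted p = 0.00025). Of 11 polyamine genes 4 rose and 2 fell (median 0.10), with Eif5a (1.12, SE 0.18, adjusted p = 0.00044) and Srm (1.06, SE 0.23, adjusted p = 0.0035) higher and Sat1 (-0.81, SE 0.18, adjusted p = 0.0044) lower. Of 12 cofactors 3 rose and 2 fell, with Skp2 (2.31, SE 0.35, adjusted p = 0.00027) higher and Pim1 (-0.85, SE 0.16, adjusted p = 0.0016) lower.

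**Figure D4:**
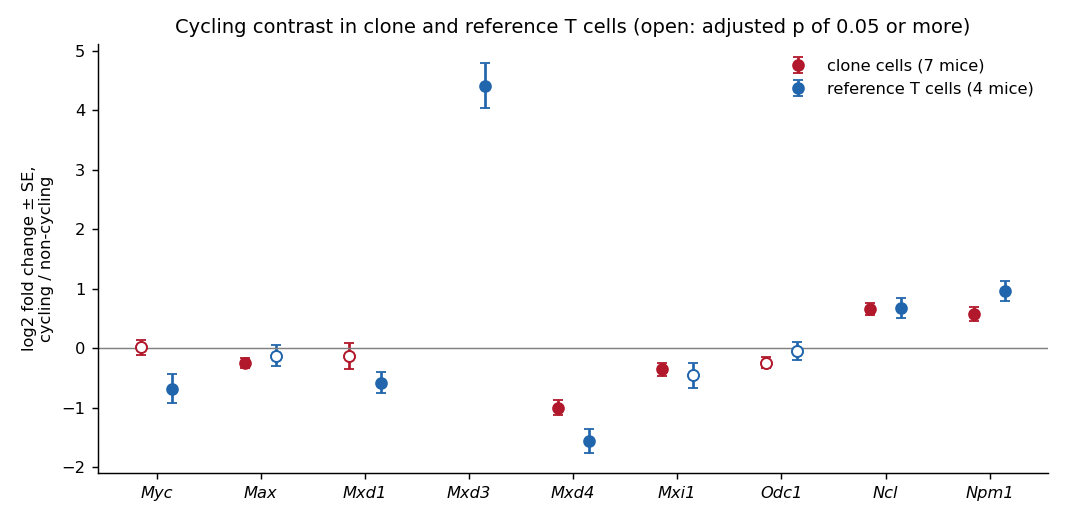
Log2 fold change ± SE (edgeR) of cycling over non-cycling cells for 9 members, in clone cells of 7 mice (red) and reference T cells of 4 mice (blue). Open symbols have an adjusted p of 0.05 or more, Mxd3 was tested in reference T cells only, and the 2 estimates have the same sign for each of the other members except Myc, whose clone estimate is 0.02.

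The cycling contrast of the clone was set against that of reference T cells in those 4 mice. The difference between them passed for 0 of 9 members and for 0.0% of 11940 genes by edgeR, with 906 genes (7.59%) and no member at an unadjusted p under 0.05. DESeq2 called 51 genes (0.494%) and no member. For Myc the clone contrast exceeded that of reference T cells by 0.63, SE 0.51, 95% interval -0.46 to 1.72, adjusted p = 0.83, for Mxd4 by 0.54, SE 0.29, 95% interval -0.08 to 1.16, adjusted p = 0.70, and Npm1 gave -0.65, SE 0.46, 95% interval -1.65 to 0.35, adjusted p = 0.80. The mouse was a block in this fit, but the gap between clone and reference T cells was held equal across mice. Its SE for Myc (0.51) was larger than in the paired fits (0.12 in clones of all mice, 0.24 in reference T cells). For Npm1 it was 0.46 against 0.11 and 0.17. The Myc ratio of cycling over non-cycling cells was higher in the clone in 4 of 4 mice. This fit therefore cannot decide whether the lower Myc of cycling reference T cells differs from the clones.

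T clones were set against B clones, the groups of mice that the labels give. By edgeR 0 of 9 members passed, against 6.74% of 15191 genes. Npm1 (-1.71, SE 0.54, adjusted p = 0.096) and Myc (-1.82, SE 0.65, adjusted p = 0.13) were the 2 members under an unadjusted p of 0.05, with estimates below 0, and 26.4% of all genes were under it. DESeq2, which called 20.5% of genes, called both. Without mouse 29 edgeR called Npm1 (-1.30, adjusted p = 0.044).

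Npm1 was at 925 and 853 CPM in the T clones and at 2329.6, 5108, 1290.4, 1651 and 1853 in the B clones. Both T clones lay below all B clones for Myc and Npm1, which 9.95% of genes did, and above all B clones for Mxd4, which 22.9% did. Of 69 listed genes 4 were lower in T clones and none higher, namely Nme2 (-1.63, SE 0.29, adjusted p = 0.024), Usp28 (-2.76, SE 0.59, adjusted p = 0.038), Eif4a1 (-1.31, SE 0.30, adjusted p = 0.044) and Eif5a (-1.27, SE 0.29, adjusted p = 0.046). The nucleolar list had a median of -1.27 with no gene passing, against -0.08 over all genes.

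Cells with and without a Myc UMI were compared at equal depth within the clones, with 2390 Myc-positive and 11602 Myc-negative cells thinned to 2000 UMIs. Of 7 other members tested 0 passed edgeR's test, against 0.368% of 8152 genes. Odc1 (0.23, SE 0.08, adjusted p = 0.29), Ncl (0.18, SE 0.06, adjusted p = 0.23) and Npm1 (0.18, SE 0.06, adjusted p = 0.29) were the 3 members under an unadjusted p of 0.05, with estimates above 0, and 8.16% of all genes were under it. DESeq2, which called 11 of 881 genes (1.25%), called none. Odc1 was the higher in Myc-positive cells in 7 of 7 mice. Npm1 passed without mouse 33 (0.23, adjusted p = 0.012). The estimates for Max (-0.04, SE 0.11, 95% interval -0.25 to 0.18), Mxd1 (-0.08, SE 0.17, 95% interval -0.41 to 0.25), Mxd4 (-0.07, SE 0.12, 95% interval -0.32 to 0.17) and Mxi1 (-0.09, SE 0.11, 95% interval -0.32 to 0.13) spanned 0. Of 63 listed genes 3 were higher and none lower, namely Hspd1 (0.29, SE 0.07, adjusted p = 0.018), a mitochondrial chaperone, Pim1 (0.32, SE 0.08, adjusted p = 0.029), a kinase that acts on MYC, and Gnl3 (0.34, SE 0.08, adjusted p = 0.039), for nucleostemin.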

How the data were processed

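The deposited gene tables hold raw UMI counts per gene and called cell for 7 RNA libraries, counted by the authors against GRCm38 (mm10). The deposited V(D)J tables hold UMI counts per assembled receptor contig, made by the authors with SeekSoulTools for 7 further libraries. The treatment of reads that match several genes is not given in the sources used here, and the sources differ on whether the 5′ or the 3′ end of the transcript was counted. The members and gene lists were chosen with earlier results of these data known.

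Cells with at least 201 UMIs, 101 genes and at most 10% mitochondrial UMIs were kept. No doublet caller was run, and gates on lineage genes were tried as alternatives. Counts were summed per mouse and cell set (at least 20 cells), so the replicate is the mouse, and 1 nodule stood for each. The clone, other-receptor, cycling and S-leaning or G2/M-leaning sets are defined in the report. Cells of clone and reference sets of a mouse come from the same animal, so the mouse was a block in every fit except T clones against B clones. Sums were fitted with edgeR 4.0.16 in R 4.3.3 (quasi-likelihood F test, TMM, filterByExpr), with p-values adjusted by Benjamini-Hochberg over all genes tested and a threshold of 0.05. Standard errors were taken from the F statistic, intervals are 95% intervals from the t distribution with edgeR's degrees of freedom, and per-mouse log2 ratios use CPM + 1. A level of 0 is given with the level that 3 UMIs would have, and Poisson intervals and these floors cover counting error only. DESeq2 1.42.0, library totals without TMM, no filter, each mouse left out, no mouse block, BCR mice only, other clone and cycling rules and other gates were tried. The comparisons between BCR and TCR mice of the cycling contrast and of clone against reference T cells, and the repeats on cells free of RNA of other types, were added after seeing the data. All 10 members were read in every comparison, and from each further list the 3 genes with the smallest adjusted p could be named. The fits were also run on simulated sums with known changes. Those sums held no differences between mice, so they do not show how the fits behave with the spread among mice seen here. Cells were handled in Python 3.11.15 with numpy 2.4.6 and scipy 1.17.1.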

Additional observations from a re-analysis of the deposited data

Results flagged for a closer look

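A sample far from the rest of its group was sought in 80 groups of 4 to 7 mice, a rule by which chance picks about 1 group in 20, and 10 were found. The clone of mouse 29, a B clone in lung and the smallest of the 7, stood apart from the other B clones at 3 genes, with Myc at 462, Mxd1 at 67.2 and Npm1 at 5108 CPM. Npm1 was also far above reference T cells in its non-cycling cells (log2 ratio 2.76), and its Mxd3 ratio of cycling over non-cycling cells was 0.0 because no Mxd3 UMI was found in either set.

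In mouse 32, a T clone, the Myc ratio of cycling over non-cycling clone cells was 0.80, far above the other 6 mice. In mouse 31 Mxi1, at a low level in its clone, had a log2 ratio of 1.21 between S-leaning and G2/M-leaning cells. Its ratio was -2.66 between clone and other-receptor cells, a set of 42 cells in that mouse. Between Myc-positive and Myc-negative clone cells, mouse 34 stood apart for Mxd1 (-1.78) and mouse 27 for Mxi1 (-0.97).

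All 5 BCR mice moved one way and both TCR mice the other for 3 members between clone and reference T cells, as did 7.42% of 14128 genes. The mean log2 ratio was 1.67 in BCR mice and -0.45 in TCR mice for Myc, -0.98 and 0.49 for Mxd4, and 1.18 and -0.24 for Npm1. The test of this difference by edgeR did not pass for Myc (adjusted p = 0.073), Mxd4 (adjusted p = 0.15) or Npm1 (adjusted p = 0.18). In non-cycling cells the means were 1.28 and -0.71 for Myc, -0.81 and 0.79 for Mxd4, and 1.16 and -0.22 for Npm1, where 7.64% of 10131 genes ran in opposite directions and the difference was not tested. The BCR mice set B cells against T cells and the TCR mice T cells against T cells, so lineage and receptor group cannot be told apart.

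The rise with cycling was larger in T clones than in B clones for Ncl (by 0.50 on the log2 scale) and Npm1 (by 0.68), as tested in the report, where the dependence on mouse 32 is given.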

How the results depend on the processing

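The number of members passing changed as follows where it moved by more than 1.5 times. Without the replicate block (the mouse), 0 members passed between cycling and non-cycling clone cells in place of 5, 0 between S-leaning and G2/M-leaning cells in place of 1, and 3 between cycling and non-cycling reference T cells in place of 6. Calls over all genes fell as well, to 354 in place of 2661 of 11077 in the first comparison. They fell to 60 in place of 976 of 10423 in the second and to 550 in place of 2601 of 8387 in the third. The mouse is the same animal in both sets of a comparison, which is where the pairing comes from. DESeq2 called 1 member against other-receptor cells (1.03% of genes), 5 against reference T cells (30.5%) and 3 in the non-cycling form of it (25.1%). It called 2 between T and B clones (20.5%) and 2 in the TCR-BCR difference of clone against reference T cells (8.71%). BCR mice alone gave 2 members for S-leaning cells (1093 of 10453 genes), 6 against reference T cells (3445 of 12449 genes) and 4 in its non-cycling form (2640 of 10702 genes). Without a filter 2 passed for S-leaning cells (1133 of 22431 genes) and without TMM 2 for Myc-positive cells (41 of 8153 genes, Myc included). On cells free of RNA of other types 1 passed in the T-B difference of the cycling contrast (411 of 14113 genes). Leaving out each mouse gave 3 to 6 members for cycling clone cells, 0 to 2 for S-leaning cells, 0 to 0 against other-receptor cells, 1 to 2 against reference T cells, 1 to 1 in the non-cycling form, 3 to 6 for cycling reference T cells, 0 to 0 for clone minus reference, 0 to 1 between T and B clones, 0 to 1 for Myc-positive cells, 0 to 4 for the T-B difference of cycling and 0 to 1 for that of clone against reference. The genes called then numbered 507 to 1093 for S-leaning cells, 173 to 1679 in the non-cycling form and 1126 to 2908 for cycling reference T cells. They numbered 179 to 1472 between T and B clones, 156 to 2463 for the T-B difference of cycling and 0 to 362 for that of clone against reference. Over all genes, calls against reference T cells numbered 1268, and 226 (without mouse 33) to 2280.0 (without mouse 30) with a mouse left out. Calls of cycling clone cells numbered 2661, with 1577 (without mouse 31) to 2959 (without mouse 32). The cause of these changes was not tested. Of 1370 estimates of single members under alternatives, 1287 kept their side of the threshold, 38 newly passed and 45 no longer passed, and 80 changed sign, of which 0 were past the threshold in either fit. Clones with 50 to 1302 cycling cells and other-receptor sets of 24 to 528 cells limit what could be detected.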
